A study of Caenorhabditis elegans with 3 samples.

Results

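Autosomal divergent promoter regions are MEP-1 ChIP-seq regions that lie close to the starts of genes on opposite strands, for the most part between genes pointing away from each other. They were taken from the reproducible list of MEP-1 ChIP-seq regions by position alone. A region was a member when its point source, the position of strongest signal, lay on an autosome and in promoter windows of both strands, that is of at least 1 plus-strand and at least 1 minus-strand protein-coding gene. The window of a gene ran from 500 bp before to 100 bp after any of its annotated transcription start sites (TSSs). The rule gave 414 members among 5229 regions (7.92%). They made up 10.02% of the 4133 autosomal regions and 22.7% of the 1825 autosomal regions in any promoter window. The remaining 1411 autosomal promoter regions lay in windows of genes of 1 strand only and served for comparison, together with 2308 autosomal regions outside promoter windows.

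The data came from 3 biological replicates of whole Caenorhabditis elegans at the fourth larval stage (L4), sexes mixed, of strain OP102 with genotype unc-119(tm4063) III; wgIs102. The insertion wgIs102 carries MEP-1 with a C-terminal GFP-FLAG tag, and the labels name the target of the ChIP as eGFP-mep-1. All samples form 1 group, so comparisons are between kinds of promoters within each replicate. For replicates 1 and 2 the labels give the stock centre CGC and fragments of 150 to 350 bp, for replicate 3 another origin and a note on its sonication, and the control was not analysed here. Neither the promoter of the transgene nor the cells that make the tagged protein are stated in the labels.

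MEP-1 is a nuclear zinc-finger protein that works with the chromatin remodeller LET-418 (Mi-2) and the deacetylase HDA-1, and it is known for keeping germline genes silent in somatic cells. In a divergent promoter, a minus-strand gene and a plus-strand gene start from the same stretch of intergenic DNA, so that a factor bound there stands upstream of both. Many worm genes are trans-spliced, so an annotated TSS is often the splice site of the mature transcript and lies downstream of where transcription begins. Distances here are to the annotated start.

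The sequence at the point source is shown for the 8 highest-scoring members on chromosomes II to V and for rbc-2/ndua-8, the highest-scoring one there with a match to GGCGCA. A member is named by its nearest minus-strand and nearest plus-strand gene. Each line holds 100 bases centred on the point source, plus strand of ce11, read from the RefSeq genome of the same assembly (WBcel235). Capitals mark matches on either strand to 5 motifs: GAGAGA, which is frequent at MEP-1 regions at large, and ACCGTA along with CGCAAA as well as GGCGCA followed by GAGACC, which were commoner in members than in 1-strand promoter regions.
rpl-20/Y17G9B.5, chrIV:4750015-4750114: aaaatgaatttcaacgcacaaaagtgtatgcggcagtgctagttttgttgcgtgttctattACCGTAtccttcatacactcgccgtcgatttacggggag
rpl-15/K11H12.8, chrIV:654877-654976: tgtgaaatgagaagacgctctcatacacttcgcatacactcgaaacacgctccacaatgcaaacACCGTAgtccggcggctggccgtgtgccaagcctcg
rpl-12/lin-54, chrIV:13240636-13240735: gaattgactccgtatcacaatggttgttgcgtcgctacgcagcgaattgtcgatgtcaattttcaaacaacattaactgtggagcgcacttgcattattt
ska-3/rps-12, chrIII:5679088-5679187: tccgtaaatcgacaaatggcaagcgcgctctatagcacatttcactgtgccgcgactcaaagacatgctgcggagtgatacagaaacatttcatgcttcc
Y71H2AM.20/cox-6B, chrIII:2786002-2786101: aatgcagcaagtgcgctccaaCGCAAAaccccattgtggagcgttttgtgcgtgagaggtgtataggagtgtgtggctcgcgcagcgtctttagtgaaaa
drr-2/set-16, chrIII:13643688-13643787: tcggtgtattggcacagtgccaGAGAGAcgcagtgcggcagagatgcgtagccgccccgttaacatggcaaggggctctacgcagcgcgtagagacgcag
cct-8/Y55F3AR.2, chrIV:1094301-1094400: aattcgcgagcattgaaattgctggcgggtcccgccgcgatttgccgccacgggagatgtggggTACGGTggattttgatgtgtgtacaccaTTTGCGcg
gmps-1/cap-2, chrII:10868928-10869027: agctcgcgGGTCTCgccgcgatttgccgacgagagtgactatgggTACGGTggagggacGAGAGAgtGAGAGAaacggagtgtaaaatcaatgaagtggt
rbc-2/ndua-8, chrIII:2528766-2528865: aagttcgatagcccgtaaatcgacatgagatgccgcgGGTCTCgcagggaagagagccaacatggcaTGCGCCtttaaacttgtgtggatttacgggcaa
Within these 100 bases, rpl-20/Y17G9B.5 and rpl-15/K11H12.8 carried ACCGTA, cct-8/Y55F3AR.2 and gmps-1/cap-2 carried it as TACGGT, and gmps-1/cap-2 and rbc-2/ndua-8 carried GAGACC as GGTCTC. The 100 bases shown for rpl-12/lin-54 and ska-3/rps-12 held none of the 5 motifs.

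The strongest members lay upstream of ribosomal protein genes, each back to back with a gene of another kind. The region between rpl-20, a gene of the large ribosomal subunit, and Y17G9B.5 (ce11 chromosome IV, 4749868 to 4750259) had a score of 1537 in the reproducible list. The score is the authors' signal value, whose scale is not stated, so it is used only to rank and to compare within a list. In the replicates' own lists the rpl-20 region scored 660, 636 and 237 in replicates 1, 2 and 3, where it ranked 5, 8 and 6. The lower figure of replicate 3 went with lower scores throughout its list, while the rank was alike in all 3.

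The region between rpl-15, another large-subunit gene, and K11H12.8 (chromosome IV, 654713 to 655125) scored 1438, with 558.0, 656.1 and 234.8 in replicates 1, 2 and 3. It was followed by the region shared by rpl-12 and lin-54 (chromosome IV, 13240485 to 13240873), at 907. The lin-54 gene encodes the DNA-binding subunit of the DREAM repressor complex, and the point source lay 35 bp upstream of rpl-12 and 358 bp upstream of lin-54. The small-subunit genes rps-12, rps-19 and rps-20 came next: ska-3/rps-12 scored 889, rps-19/hsr-9 scored 803 and rps-20/ekl-4 scored 769. Their partners include ska-3, a gene of the spindle and kinetochore, and hsr-9, the worm relative of 53BP1. Of the 15 highest-scoring members, 6 thus had a cytosolic ribosomal protein gene on 1 side.

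The other members among the highest 15 had no cytosolic ribosomal protein gene as a nearest gene. The region of Y71H2AM.20 and cox-6B, a gene for a cytochrome c oxidase subunit, scored 733. The region of drr-2 and the H3K4 methyltransferase gene set-16 scored 715. Subunits of the CCT chaperonin were at cct-8/Y55F3AR.2 with 676 and at mig-5/cct-1 with 571, and mig-5 encodes a Dishevelled protein of Wnt signalling. The region of lin-53 and nra-2 scored 598, with 258, 259 and 84.1 in replicates 1, 2 and 3; LIN-53 is a histone-binding protein of DREAM and of other chromatin complexes. The remaining 4 were gmps-1/cap-2 (574), tim-1/Y75B8A.23 (538), rbc-2/ndua-8 (534) and rab-18/kbp-4 (533). All 15 overlapped a top region of each replicate, a top region being 1 of the 5167 highest-scoring distinct regions of a replicate's own list.

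**Figure D1:**
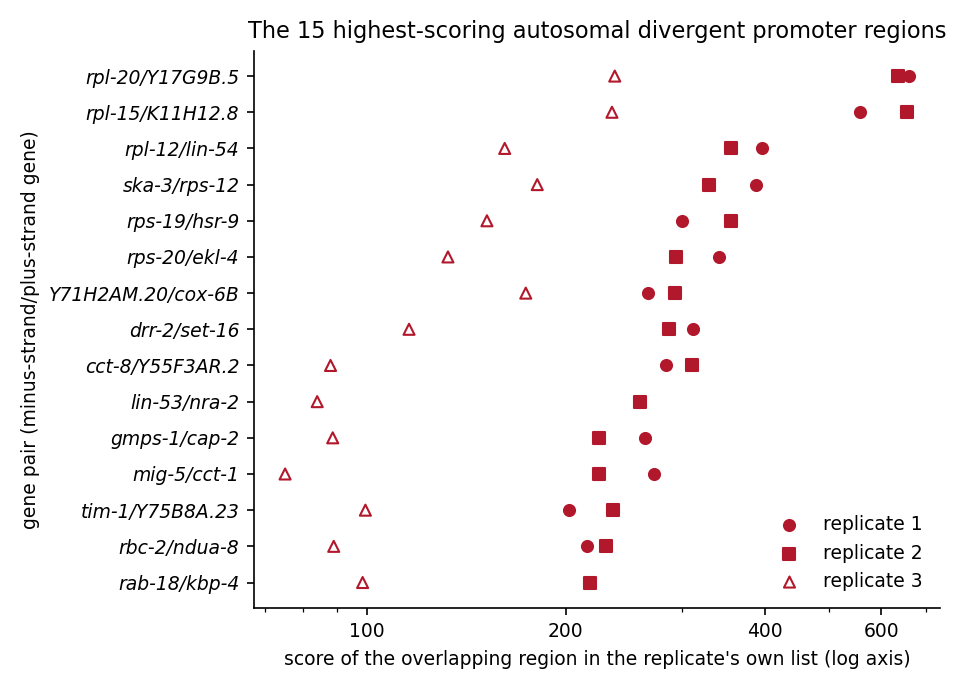
Score of the overlapping region in each replicate's own list (log axis) for the 15 highest-scoring members, named by minus-strand and plus-strand gene. Replicate 3 lies to the left of replicates 1 and 2 in every row, and rpl-20/Y17G9B.5 and rpl-15/K11H12.8 stand apart in each replicate, at 237.1 and 234.8 in replicate 3.

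The weakest members sat just above the end of the reproducible list. The region of nsun-1/W07E6.5 scored 62.6, coq-5/ufm-1 scored 62.8 and Y73C8B.3/Y73C8B.9 scored 62.9. The first of them overlapped a top region in none of the replicates, the second in 1 and the third in 2. Between these ends, the members had a median score of 148.9, with quartiles of 99.9 and 237.1.

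Members scored higher than 1-strand promoter regions. The reproducible-list medians were 148.9 for members, 111.4 for 1-strand promoter regions and 97.7 for regions outside promoter windows. In the replicates' own lists, members had median scores of 62.7, 61.7 and 27.5 in replicates 1, 2 and 3, and 1-strand promoter regions had 47.8, 48.1 and 23.4. Members were higher in 3 of 3 replicates, by 0.39, 0.36 and 0.24 on the log2 scale (mean 0.33 ± 0.08, SD, n = 3; two-sided exact permutation p = 0.25). With 3 replicates 0.25 is the smallest p that flipping the signs can give, so no comparison of this design can reach 0.05. It is reached whenever all 3 differences share a sign, whatever their size or spread. The members' share grew with the score: with the autosomal list cut by score into 4 equal groups, low to high, 52, 63, 114 and 185 members fell in them, or 5.03%, 6.10%, 11.04% and 17.9% of each group. Members numbered 6 of the 20, 27 of the 100 and 103 of the 500 highest-scoring autosomal regions.

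**Figure D2:**
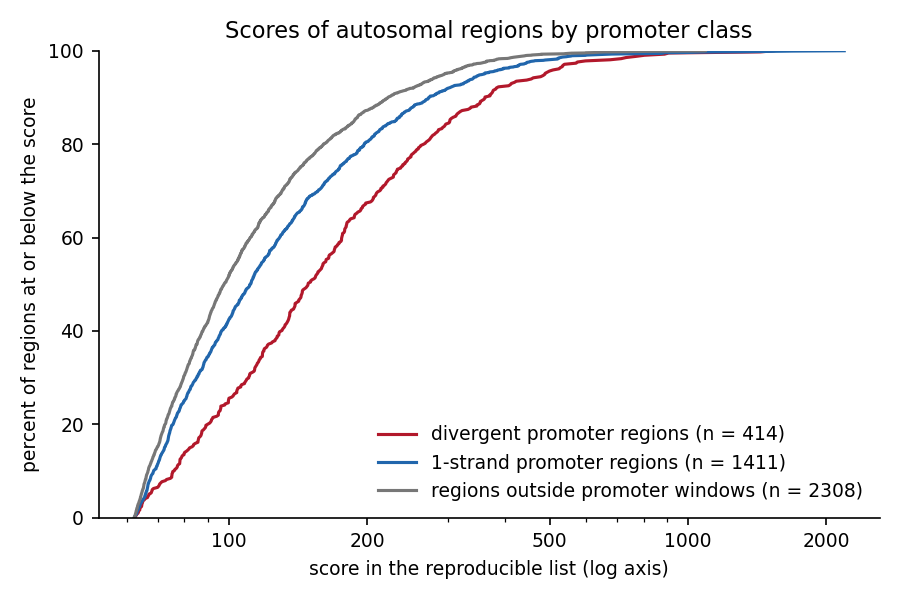
Cumulative percent of autosomal regions at or below a score of the reproducible list (log axis), for members, 1-strand promoter regions and regions outside promoter windows. The curve of the members lies to the right over most of its length, with a median of 148.9 against 111.4 and 97.7, while the single highest region is a 1-strand one at 2188.

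Members also came back more often from each replicate alone. Of the 414 members, 92.5%, 90.6% and 86.5% overlapped a top region of replicates 1, 2 and 3 (mean 89.9% ± 3.09, SD, n = 3), against 86.6%, 83.3% and 77.4% of 1-strand promoter regions (82.5% ± 4.68). The difference was 7.41 ± 1.59 percentage points and positive in 3 of 3 replicates (two-sided exact permutation p = 0.25). In all, 326 members (78.7%) overlapped a top region of all 3 replicates, against 62.4% of 1-strand promoter regions; over all autosomal regions the share was 60.4%. Only 5 members overlapped none. The reproducible list was itself made from these replicates, so the shares describe members already called reproducible. The replicates also placed the signal close together: their own point sources lay a median of 9, 9 and 15 bp from that of the reproducible list. The 3 points of a member spanned a median of 34 bp, and in 70.0% of members they fell within 50 bp of each other. Members were narrower, with a median width of 309.5 bp against 404 bp for 1-strand promoter regions. In the highest of the 4 score groups the medians were 252 bp and 262 bp, and in the third they were 200 bp and 404 bp. In the lowest and second groups both classes had a median of 404 bp.

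The windows of opposite strands overlap over little sequence, and point sources were dense in it. Sequence in windows of both strands amounted to 0.706 Mb of the autosomes and held 586 point sources per Mb. Sequence in windows of 1 strand amounted to 11.5 Mb and held 122 per Mb, and the rest held 32.8 per Mb. From each replicate's own top regions, both-strand sequence held 581, 575 and 589 point sources per Mb in replicates 1, 2 and 3, and 1-strand sequence held 125, 119 and 122. The groups did not overlap, and the ratio was 4.76 ± 0.11 (SD, n = 3; higher in 3 of 3 replicates, two-sided exact permutation p = 0.25).

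**Figure D3:**
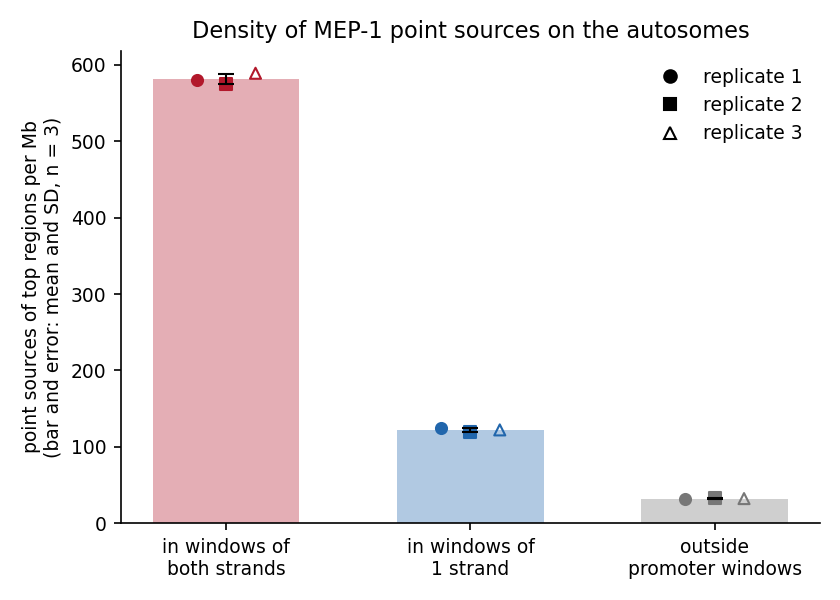
Point sources per Mb of autosomal sequence in windows of both strands, in windows of 1 strand and outside promoter windows, from each replicate's own top regions (points), with the mean and SD over 3 replicates (bars and whiskers). Both-strand sequence stands at 581 ± 7.15 per Mb, 1-strand sequence at 122 ± 2.90 and the rest at 32.2 ± 0.30.

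The ratio lay between 4.18 and 4.95 on every chromosome. In the reproducible list it was 4.70 on chromosome I, 4.18 on II, 4.38 on III, 4.84 on IV and 4.95 on V, and 4.48 on X, where the same rule gave 25 regions. The members numbered 106 on chromosome I, 67 on II, 101 on III, 68 on IV and 72 on V. Members were 22.7% of promoter regions on the autosomes, against 6.83% of 366 promoter regions for the same class on X, where both-strand sequence was 0.0330 Mb. Restricting the count to bases outside protein-coding gene bodies, an alternative chosen after seeing the data, gave a ratio of 4.56 ± 0.12 (SD, n = 3). Sequence in windows of 2 or more genes of the same strand held 211 point sources per Mb, but it covers only 0.0663 Mb with 14 points. Both-strand sequence exceeded it by a factor of 2.88 ± 0.53 in the 3 replicates. Outside gene bodies the factor was 1.916, 2.985 and 2.125 in replicates 1, 2 and 3. There the same-strand sequence held only 11, 7 and 10 points.

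Genes in the divergent arrangement were bound more often than other genes. Of 17242 autosomal protein-coding genes, 2157 (12.5%) had a point source of the reproducible list in their window. Among the 3622 genes whose window overlaps that of an opposite-strand gene, 968 were bound (26.7%), and among the 13620 others, 1189 were bound (8.73%). The replicates' own top regions gave 26.9%, 26.1% and 27.2% for genes in the divergent arrangement (mean 26.7% ± 0.54, SD, n = 3) and 8.88%, 8.43% and 8.64% for the others (8.65% ± 0.22). A point in both-strand sequence counts for both of its genes, which raises the share for such genes. Of the 1848 annotated pairs with overlapping windows, 420 (22.7%) held a member.

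Most pairs held a single member. The 414 members had 409 distinct nearest pairs, and 829 genes (4.81% of the autosomal protein-coding genes) had a member in their window. There were 403 members in windows of 2 genes and 11 in windows of 3. The 5 pairs with 2 members each were C47E8.4/hsp-90, rpl-1/Y71F9AL.9, ruvb-1/tofu-1, supr-1/dnj-28 and B0491.6/pigm-1. In each of them the 2 regions overlap, so the same region of a replicate's list can match both. At C47E8.4/hsp-90, upstream of the Hsp90 gene, the regions scored 523.9 and 64.95, and their point sources lay 376 bp and 175 bp upstream of hsp-90. In 4 of the 5 pairs 1 of the regions scored under 71; at supr-1/dnj-28 the scores were 209.0 and 184.2.

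Between the genes of a pair, MEP-1 sat near the middle. The TSSs of a member's nearest genes lay a median of 386.5 bp apart (quartiles 267 and 528 bp), where the windows allow up to 1000 bp, and in 384 members the point source fell between the TSSs (93.0% of all but 1 member whose TSSs overlap). Dividing the gap into 3 equal parts, the middle one held 231 members (55.9%), although it makes up 28.8% of the sequence in which a member could lie. That is 4.25 members per kb in the middle part, 1.66 in the part next to the minus-strand gene, 2.07 in the part next to the plus-strand gene and 0.56 outside the gap. The replicates' own points gave 53.2%, 53.9% and 53.5% in the middle part. The point source was a median of 132.5 bp upstream of the nearer TSS and 261 bp upstream of the farther one. In 1-strand promoter regions it was 186 bp upstream. The nearer TSS of a member is picked as the closer of 2, so the 132.5 bp and 186 bp are not like measures. The point source was nearer to the plus-strand TSS in 229 members and nearer to the minus-strand TSS in 185.

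The position shifted with the width of the gap. With TSSs 101 to 200 bp apart, 24.4% of 41 members lay in the middle part, and the median point was 27 bp upstream of the nearer TSS. With TSSs 301 to 400 bp apart, 51.1% of 90 members did, and the median was 127.5 bp. With TSSs 601 to 800 bp apart, 74.6% of 59 members did, and the median was 272 bp; windows ending at 500 bp leave little other room in such wide gaps. The share of annotated pairs that held a member was 20% at 101 to 200 bp, 41.6% at 301 to 400 bp, 15.2% at 601 to 800 bp and 1.72% at 801 to 1000 bp. Per Mb of sequence in both windows, pairs with a member numbered 561 at 101 to 200 bp, 753 at 301 to 400 bp, 492 at 601 to 800 bp and 167 at 801 to 1000 bp.

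**Figure D4:**
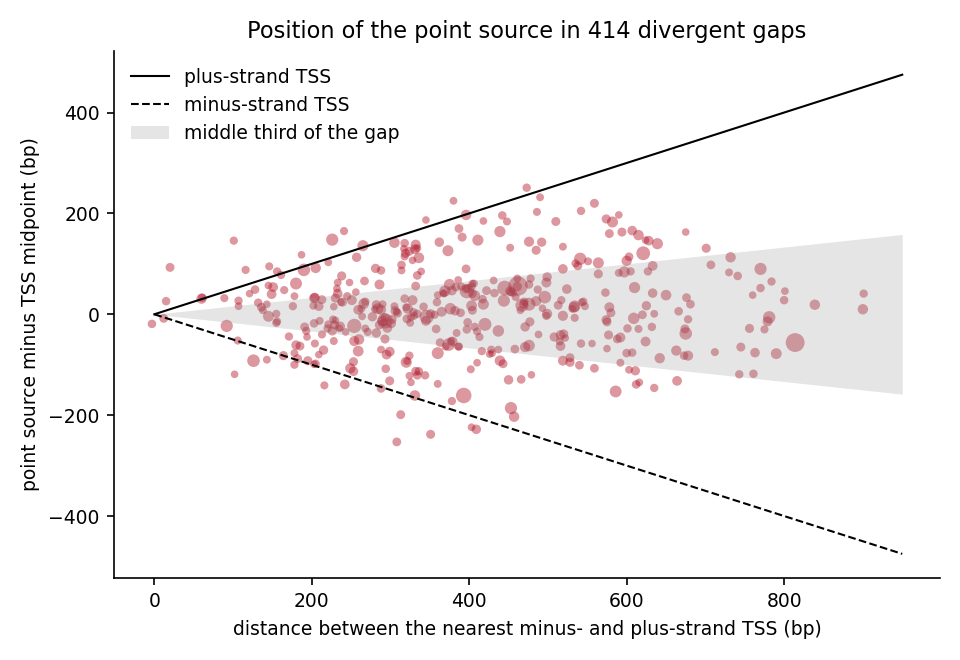
Position of the point source relative to the midpoint of the TSSs (bp) against the distance between the TSSs (bp) for the 414 members, with larger points for higher scores. The lines mark the plus-strand TSS (solid) and the minus-strand TSS (dashed), and the grey band is the middle of 3 equal parts, which holds 231 members.

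The number of members depended on the length of the window: it was 132 with windows starting 200 bp upstream and 610 with windows from 1000 bp upstream to 200 bp downstream. Close to the edge used here, within 25 bp inside the upstream edge of the farther gene lay 12 members, and within 25 bp outside it lay 14 regions that otherwise met the rule. Just inside were the weaker C47E8.4/hsp-90 region (500 bp upstream, score 64.95), unc-40/npp-7 (499 bp, 132.6) and akir-1/E01A2.1 (499 bp, 173.8). Just outside were piit-1/sas-5 (501 bp, 161.5), W03B1.9/sars-2 (502 bp, 84.2) and R53.4/psf-1 (503 bp, 100).

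The genes at members were compared with 26 lists drawn up by gene symbol. At least 1 nearest gene was on a list for 211 members, for 44 of them on both sides, and 203 members had no nearest gene on any list. All counts below are to be read against the 829 of 17242 autosomal genes (4.81%) with a member in their window. They are counts of genes, and no list was tested. They also depend on how many genes of a list have an overlapping opposite-strand window.

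Cytosolic ribosomal protein genes had the highest share. A member lay in the window of 40 of 81 (49.4%), and the replicates' own top regions gave 39, 40 and 39 genes (48.6% ± 0.71, SD, n = 3), against 4.76% ± 0.05 of all autosomal genes. With windows starting 200 bp upstream the count was 4 ribosomal protein genes, where the members as a whole numbered 132. Of the 49 ribosomal protein genes with an overlapping opposite-strand window, 81.6% had a member, against 22.9% of all such genes. The high share was not particular to divergent promoters. A point source lay in the promoter window, divergent or not, of 66 of the 81 (81.5%), against 12.5% of all autosomal genes. The median score of the members at ribosomal protein genes was 275.5. In 35 members only 1 of the nearest genes was ribosomal, and the point lay nearer to that gene in 11 of them, a median of 294 bp upstream of the ribosomal gene and 180 bp upstream of its partner. In 3 members both genes were ribosomal, namely rps-10/rpl-24.1 (score 381), rps-14/rpl-36 (286) and rpl-39/rps-30 (268), and in the last the point lay 250 bp upstream of rpl-39 and 249 bp upstream of rps-30.

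Other genes of protein synthesis had lower shares. Translation factor genes had a member at 13 of 40 (32.5%), led by eef-1A.1 (499), eef-1G (460), eef-2 (376) and eef-1B.1 (317), which encode elongation factors. The eef-1A.1 region was shared with rfc-4, a clamp-loader gene of DNA replication, and that of eef-1B.1 with the aconitase gene aco-2. Mitochondrial ribosomal protein genes had a member at 18 of 70 (25.7%), but at a median score of 106.4 and with 19, 17 and 14 genes in the replicates. Their highest were mrps-7 (282), mrpl-49 (226), mrpl-17 (160) and mrpl-45 (156). The mrpl-49 region was shared with the cytosolic ribosomal gene rpl-28. Aminoacyl-tRNA synthetase genes had a member at 5 of 31 (16.1%), with ears-2 (489), aars-1 (139), nars-1 (119) and tars-1 (106) at the top.

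Protein folding and breakdown were also represented. Any promoter window, divergent or not, held a point source for 50.7% of chaperone, 57.6% of proteasome and 27.2% of ubiquitin pathway genes. For all autosomal genes this share was 12.5%. Chaperone genes had a member at 23 of 71 (32.4%), with cct-8, cct-1, hsp-90 and hsp-110 (478) at the top. Proteasome genes had a member at 13 of 33 (39.4%), with 14, 13 and 16 in the replicates, led by rpn-3 (478), rpn-9 (274), rpt-2 (219) and pas-4 (205). The hsp-110/rpn-3 region (chromosome III, 8446956 to 8447317) thus stood between an Hsp110 chaperone gene and a gene of the proteasome lid, 249 bp upstream of hsp-110 and 195 bp upstream of rpn-3, with 203.4, 194.3 and 83.13 in replicates 1, 2 and 3. The pas-4 region was shared with rpb-3, a gene of RNA polymerase II. Ubiquitin pathway genes were less frequent, at 9 of 92 (9.78%), with ubc-6 (319), usp-48 (261), ubc-12 (178) and uba-2 (167) named by score.

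The pair hsp-16.2/hsp-16.41, which encodes small heat shock proteins that are strongly heat-inducible, was among the weaker members. It scored 76.9, with 24.9, 39.3 and 27.8 in replicates 1, 2 and 3, and overlapped a top region in 2 of the 3. The labels name no heat treatment.

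Genes of the respiratory chain and ATP synthase had a member at 19 of 65 (29.2%), with cox-6B (733), ndua-8 (534), atp-1 (527) and atp-2 (352) at the top. The genes atp-1 and atp-2 encode the alpha and beta subunits of ATP synthase. The point source at mcrs-1/atp-1 lay 7 bp upstream of atp-1 and 183 bp upstream of mcrs-1, while at C34E10.10/atp-2 it lay 253 bp upstream of atp-2. Mitochondrial import genes had a member at 1 of 14, tin-9.2 (145), but only 2 of the 14 have an overlapping opposite-strand window. A point source lay in the promoter window, divergent or not, of 8 of the 14 (57.1%), against 12.5% of all autosomal genes.

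Splicing and RNA-processing genes had a member at 26 of 96 (27.1%). The SR protein genes rsp-1 and rsp-2 face away from each other and shared 1 region (chromosome II, 11453060 to 11453350, score 347), with 126.1, 132.4 and 97.28 in replicates 1, 2 and 3. The point lay 240 bp upstream of rsp-2 and 167 bp upstream of rsp-1. Pairs with both genes on this list also included snu-13/rsp-7 (170) and snr-3/rsp-5 (169.5); snr-3 encodes a core Sm protein of the spliceosome. Next by score were prp-40 (303) and lsm-7 (247).

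Nuclear pore and importin genes had a member at 12 of 40 (30%), with npp-3 (456), npp-14 (332), imb-1 (239) and ran-5 (233) at the top. In 10 of the 12 the point lay nearer to the partner gene, a median of 277 bp upstream of the nuclear pore or importin gene and 53.5 bp upstream of the partner. The npp-3 region was shared with the topoisomerase gene top-2. RNA polymerase, TAF and Mediator genes had a member at 8 of 62 (12.9%), led by mdt-9 (223), rpb-3 (205), taf-11.3 (183) and mdt-18 (163). Vesicle traffic genes had a member at 21 of 130 (16.2%), led by rab-18 (533), sec-61.B (483), vha-8 (445) and vps-51 (361). The sec-61.B region lay between genes of the translocation machinery of the endoplasmic reticulum, sec-61.B and trap-3.

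Chromatin and cell division genes had a member at smaller shares of their whole lists than chaperone or proteasome genes. The list of DREAM and synMuv genes had a member at 3 of 29 (10.3%), all of which overlapped a top region of every replicate: lin-54 (907), lin-53 (598) and lin-35 (361). A point source lay in the promoter window, divergent or not, of 16 of the 29 (55.2%), against 12.5% of all autosomal genes. The retinoblastoma gene lin-35 shared its region with vps-51, a gene of endosomal traffic (chromosome I, 5807384 to 5807671), with 169, 124 and 64.9 in replicates 1, 2 and 3. The genes mep-1, let-418 and hda-1 themselves lay at no member. Cell cycle genes had a member at 13 of 91 (14.3%), with ska-3 (889), knl-3 (292), cdk-5 (244) and mdf-2 (163) at the top, and DNA repair genes at 3 of 37 (8.11%), with polh-1 (322) and rad-54.L (154) named by score. Of the 7 DREAM and synMuv genes with an overlapping opposite-strand window, 42.9% had a member. The share was 31.7% of 41 such cell cycle genes and 14.3% of 21 such DNA repair genes, against 22.9% of all genes with such a window.

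Histone genes had a member at 11 of 78 (14.1%), and 61 of the 78 have an overlapping opposite-strand window, so that 18.03% of those held a member against 22.9% of all such genes. The highest was htz-1 (419), which encodes the H2A.Z variant and shared its region with the cohesin-release gene wapl-1. The other named regions lay between core histone genes: his-67/his-68 (386.5), his-31/his-32 (286), his-61/his-62 (265), his-4/his-3 (166) and his-35/his-41 (63.4). Core histone genes exist in near-identical copies that can share reads, so which copy was bound is uncertain.

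Large gene families of more restricted expression had few members. A member lay at 3 of 1276 chemoreceptor genes (0.24%), 5 of 615 C-type lectin, F-box, BATH and MATH genes (0.81%), 2 of 246 nuclear hormone receptor genes (0.81%), 1 of 171 cytochrome P450, UGT and GST genes (0.58%), 1 of 106 neuropeptide genes (0.94%), 3 of 146 collagen genes (2.05%), 1 of 45 homeobox ceh genes (2.22%), 1 of 45 P granule and germline RNA genes (2.22%) and 0 of 43 major sperm protein genes. Among genes with an overlapping opposite-strand window the share was low as well: 3 of 132 chemoreceptor genes (2.27%), 5 of 141 C-type lectin, F-box, BATH and MATH genes (3.55%) and 0 of 14 major sperm protein genes, against 22.9% of all such genes. Some named members of these families had a nearest gene of another kind on the other side. The chemoreceptor gene sri-5 shared its region (296) with rsr-1, and col-38 (303) with the ribosomal gene rpl-5. The receptor gene nhr-47 (305) shared its region with the chaperone gene dnj-19, with the point 1 bp upstream of nhr-47 and 395 bp upstream of dnj-19. The region of malt-1 and the homeobox gene ceh-38 scored 487. Further named genes were nhr-68 (214), col-71 (135), fbxb-85 (335), bath-36 (176), fbxc-44 (91.6), nlp-4 (118), nos-3 (187.5), which encodes a Nanos family protein, and gst-43 (79.96). The pair fbxa-76/fbxa-77 was the only one with both genes on the F-box list (85.7).

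**Figure D5:**
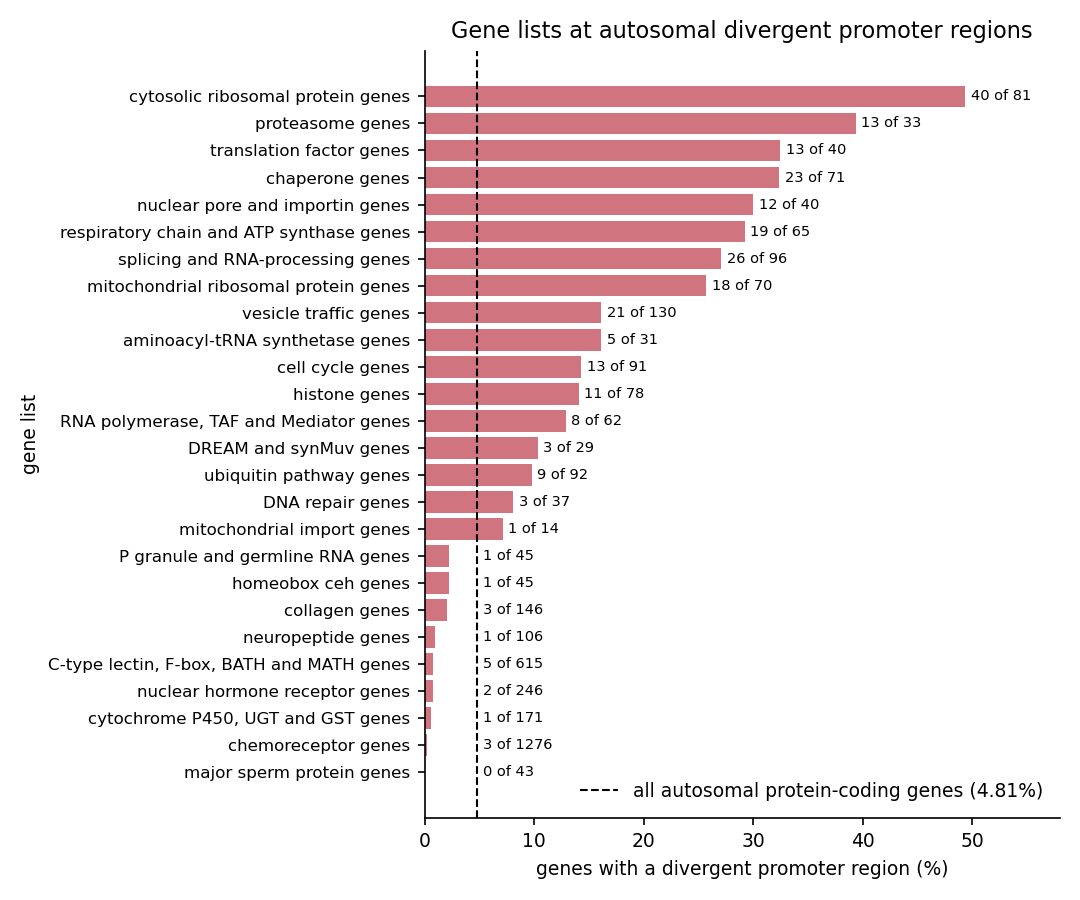
Percent of the autosomal genes of each list that have a member in their promoter window, with the number of genes beside each bar; the dashed line marks all autosomal protein-coding genes (4.81%). Cytosolic ribosomal protein genes stand highest at 49.4%, and chemoreceptor and major sperm protein genes lowest at 0.24% and 0.

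The member genes had other features in common with bound genes at large. Of the 829 genes, 70.1% carry a locus symbol, as do 70.2% of the 1328 genes bound otherwise and 55.4% of all autosomal genes. A same-strand gene began within 300 bp downstream, an arrangement found in operons, for 26.9% of member genes, 22.3% of genes bound otherwise, 14.1% of genes in the divergent arrangement that were not bound, and 13.5% of all. By position, 39.4% of members lay in the middle of 3 equal parts of their chromosome, which holds 41.55% of the both-strand sequence. The window of a non-coding gene also held the point source at 56 members (13.5%), against 11.8% of 1-strand promoter regions. None of the members lay in the window of a tRNA gene, against 22 of 1411 1-strand promoter regions (1.56%) and 94 of 2308 regions outside promoter windows (4.07%).

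The base composition at the point source differed between the classes. In the 100 bp centred on it, GC content averaged 45.55% in members, 43.7% in 1-strand promoter regions and 43.0% in regions outside promoter windows, and 33.8% at the midpoints of 1196 annotated divergent pairs in which neither gene was bound. From the replicates' own points, GC content was 45.2%, 44.8% and 45.1% in divergent and 43.1%, 42.4% and 43.8% in 1-strand promoter regions, a difference of 1.94 ± 0.59 percentage points (SD, n = 3; two-sided exact permutation p = 0.25).

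The motif GAGAGA, which is frequent at MEP-1 regions, was less frequent in members. It occurred on either strand in 14.3% of members, 23.9% of 1-strand promoter regions, 31.9% of regions outside promoter windows and 6.52% of the unbound pairs. In the replicates' own points the shares were 13.2%, 13.6% and 14.2% in divergent promoter regions and 23.7%, 21.9% and 24.1% in 1-strand promoter regions, so it was lower in 3 of 3 replicates, by 9.62 ± 1.13 percentage points (SD, n = 3; two-sided exact permutation p = 0.25). Of the other motifs of the same list, TGATAA, the form recognised by GATA factors, occurred in 3.86% of members and 10.1% of 1-strand promoter regions, the E-box CACGTG in 1.93% and 4.39%, and GCGTCT in 9.90% and 15.4%. In the other direction, TTTTTT occurred in 31.6% of members and 28.2% of 1-strand promoter regions, TTCGCG in 8.94% and 6.52%, GGGCGG in 7.49% and 7.09%, and CCAAT in 16.7% and 13.8%, each higher in 3 of 3 replicates.

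Other 6-mers were more frequent in members. Ordered by the difference in share from 1-strand promoter regions, over the 2080 6-mers counted on both strands, the first was ACCGTA. It occurred in 17.6% of members, 5.95% of 1-strand promoter regions, 1.82% of regions outside promoter windows and 4.26% of the unbound pairs. CGCAAA followed with 21.3%, 10.6%, 4.12% and 5.18% in the same order, and GGCGCA with 18.8%, 9.43%, 4.33% and 2.93%. GAGACC, also among the leading 12, occurred in 16.7%, 8.08%, 4.94% and 4.52%. At least 1 of the first 3 was present in 194 members (46.9%), against 22.9% of 1-strand promoter regions. These were chosen for their difference, so the values are descriptions without a test. The longer form GCGAGACC, chosen after the sequences were read, occurred in 42 members (10.1%), 3.12% of 1-strand promoter regions, 0.52% of regions outside promoter windows and 1.17% of the unbound pairs.

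The motifs rarely shared bases. Matches to CGCAAA and GGCGCA overlapped in 5 members, those to GAGAGA and GAGACC in 1 and those to ACCGTA and GAGACC in 1, and no other pair of the 5 motifs overlapped in a member. ACCGTA and GAGACC were both present in 21 members. ACCGTA was concentrated at the point source: within members it reached 2.50 matches per kb in the 30 bp just to its left and 1.77 just to its right, against 0.24 per kb in the 30 bp bins centred 225 bp away on either side. GAGACC had 2.82 and 1.77 matches per kb in the same central bins. Both motifs were chosen for their share in the 100 bp centred on these points, so a higher density there is partly built in. In 1-strand promoter regions ACCGTA also rose at the point source, with 0.61 and 0.73 matches per kb in the central bins, against 0.28 in the outer ones. With the score, the share of members with ACCGTA was 12.5% in the lowest of 4 equal groups and 26.0% in the highest, and that with GAGACC was 7.69% and 23.1%, while that with CGCAAA was 21.2% and 20.2%. In the reference genome, bases marked as repeats by soft masking averaged 29.7% at members and 23.7% at 1-strand promoter regions. Among regions with no such base, an alternative chosen after seeing the data, ACCGTA occurred in 19.7% of 71 members and 4.34% of 369 1-strand promoter regions, GAGAGA in 12.7% and 31.2%, and GAGACC in 8.45% and 6.23%.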

How the data were processed

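MEP-1 was measured by ChIP-seq in 3 replicates of 1 group. The deposited lists are narrowPeak files on ce11. Their score (the signal value column, scale not stated) was made by the authors' peak caller, and the −log10 q-value column, as deposited, was not used for tests because it saturates. The reproducible list was made by the authors from all 3 replicates by an irreproducible discovery rate step, per the deposited read-me. Aligner, caller and threshold: not given in the sources used here. Read depth is unknown from such lists, so no counting intervals are given. Lists on the older build and the control were not used here, and 20 mitochondrial regions were left out.

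Members and gene lists were chosen with earlier results of these data known. Point sources were placed against all TSSs of 19973 nuclear protein-coding genes (Ensembl release 115, WBcel235). Each replicate's 5167 highest-scoring distinct regions, as many as the reproducible list has, were its top regions. Motifs were searched on both strands in 100 bp, and unbound pairs had TSSs at least 100 bp apart. Differences were tested over replicates by two-sided exact sign-flip permutation. Named genes are those of the 15 highest and 3 lowest members, the 4 highest of each list with 5 or more member genes and up to 2 of each other list, pairs of 1 list, pairs with 2 regions, and lin-35; 1 such pair is not reported here. The 6 pairs named at the window edge are those closest to it. The placement code was tested on simulated data, where 100% of 330 points fell in the right class. Python 3.11.15, numpy 2.4.6, pandas 2.3.3, scipy 1.17.1 and matplotlib 3.10.9 were used. Alternatives are in the closing section.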

Additional observations from a re-analysis of the deposited data

How the results depend on the processing

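Every alternative run kept the direction of the score, recovery, density and GAGAGA differences: log2 score difference 0.14 to 0.38 over 8 alternatives, recovery 2.17 to 15.01 percentage points over 9, log2 density ratio 1.71 to 2.77 over 10, and GAGAGA −18.5 to −5.30 percentage points over 7. Among these, leaving out a replicate only averaged the values of the others, which all share a sign, so it could not reverse a direction. The −18.5 is from the reproducible list, among regions without soft-masked bases, and is not a mean over replicates. Windows from 200 bp upstream to 100 bp downstream left 132 members and 4 ribosomal protein genes with a member, against 414 and 40. The share of bound genes in the divergent arrangement over that of other genes was 3.06. It was 4.47 with the narrow windows, 2.24 with windows from 1000 bp upstream to 200 bp downstream, 3.35 with the outermost TSS only, 4.10 with the upper part of the list by score, 2.85 counting any base of the region, and 3.58 to 3.74 with a replicate left out. The middle part of the gap held 55.9% of members. It held 59.5% with the narrow windows, 45.2% with the wide ones, 56.9% with pairs at least 100 bp apart, and 56.1% to 58.5% with the stricter sets that overlapped top regions of both other replicates. The cause of these shifts was not tested. There is only 1 group, so no groups could be paired by replicate number. The promoter classes were compared within each replicate, and the sign-flip tests used these paired differences.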

Other observations

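The lists hold no reads, so a fold over input, a read depth or the strength of a region not listed cannot be given. Whole larvae were used, so the cell types in which a member was bound were not resolved, and a point between diverging genes does not say which of them MEP-1 acts on. Annotated starts are often trans-splice sites, so distances to true starts may differ. Reading the point source 1 base to the left gave 415 members in place of 414.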
